A study of Mus musculus with 6 samples.

Results

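Endothelial cells line blood and lymph vessels, and mural cells, which are pericytes on capillaries and smooth muscle cells on larger vessels, wrap them. The 36 genes described here are markers of these cells, chosen by name as a list: 25 are endothelial and 11 are mural, of which 7 are used for pericytes and 4 for smooth muscle. All 36 were found among the 55809 gene symbols counted, and all 36 passed the low-count filter that left 20146 genes for testing. They were measured by poly-A selected RNA sequencing in dorsal root ganglia, the clusters of sensory neuron cell bodies beside the spinal cord, of 8-week-old C57BL6J mice. The 3 control pools came from offspring of undisturbed dams, and dams of both groups were 8 to 10 weeks old. The 3 prenatal stress pools came from offspring of dams that were kept in drilled tubes in bright light for 30 min at a time, with 3 sessions daily, on embryonic days 13 to 18 by the treatment protocol and 13.5 to 18.5 by the series' design text. Each pool held RNA of 3 mice by the sample titles, which makes the 9 mice per group of the design text, whereas the protocol gives 3 mice per group, and the labels name no genetic change in either group. They give no litter or sex for a pool, so the p-values rest on how pools vary, and variation among litters was not tested.

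In a ganglion, endothelial cells are held together by junction proteins such as VE-cadherin and claudin-5, and they respond to vascular endothelial growth factors (VEGF) and angiopoietins through receptor tyrosine kinases. Pericytes are kept on the vessel by platelet-derived growth factor B from the endothelium, which acts on the receptor Pdgfrb, and by Notch3 signalling. Capillaries around sensory neuron bodies are known to be more permeable than those of the brain or of the nerve trunk. Smooth muscle cells of arterioles set blood flow with contractile proteins such as smooth muscle actin and myosin.

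Reads counted to genes ranged from 51749334 to 87421228 per pool, and a member had between 80 and 20454 counts in a pool. Of 10 neuron markers, 0 were called by edgeR and 2 had an unadjusted p under 0.05, and log2 fold changes (stress over control) ran from -0.18 to 0.12. The pools did not overlap for 3 of them, the tubulin gene Tubb3 and the neurofilament gene Nefm (lower in stress pools) and the neurofilament gene Nefl (higher). Markers of satellite glia, which wrap the neuron bodies, had negative values in 9 of 10 (median -0.16), and 5 of 10 were lower without overlap, among them Fabp7. By edgeR 0 of the 10 were called and 4 had an unadjusted p under 0.05. Over all genes tested, 47.7% had negative values and 11.1% an unadjusted p under 0.05. Pools did not overlap for 18.1% of all genes, and 8.76% were lower in stress pools without overlap. Levels below are in CPM, read counts scaled to library size with TMM factors. The satellite glia genes summed to 4184 to 4549 CPM in control pools and 3793 to 4064 CPM in stress pools, and their part in the values of vascular genes was not tested. Control pool 3 stood apart in skeletal muscle transcripts: 10 muscle genes summed to 2685 CPM there and to 18.5 to 57.1 CPM in the other 5 pools. Spinal cord and oligodendrocyte genes summed to 65.8 to 275 CPM in control pools and 74.1 to 378 CPM in stress pools, and red cell genes to 197 to 414 and 97.6 to 677 CPM. In such bulk samples, fewer cells of a type and less RNA per cell cannot be told apart.

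No endothelial or mural gene passed the test between prenatal stress and control pools. With edgeR's quasi-likelihood test and Benjamini-Hochberg adjustment, 0 of 36 members were called, where 0.129% of all genes tested were (0.0844% higher and 0.0447% lower in stress pools). DESeq2 called 0 of 36 (1.64% of all genes) and limma voom with quality weights called 0 of 36 (0.159% of all genes). At an unadjusted p under 0.05 there were 3 members, all lower in stress pools (Esam, Slc2a1 and Notch3). That is 8.33% of members, beside 11.1% of all genes (6.01% higher, 5.11% lower). For 7 members the pools of the groups did not overlap, 5 lower and 2 higher in stress pools. That is 19.4% of members, beside 18.1% of all genes (9.33% higher, 8.76% lower). Log2 fold changes were negative for 23 of 36 members, or 63.9%, beside 47.7% of all genes. Their median was -0.04, beside 0.01 over all genes.

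The intervals bound how large a difference these pools leave room for. For 29 of 36 members the 95% interval of the log2 fold change lay within 0.5 of 0 on both sides, as it did for 13240 of the 20146 genes tested. It did so for 22 of 25 endothelial members and for 7 of 11 mural members. The widest were those of Vtn and Abcc9, and the narrowest was that of Mcam (-0.10 to 0.05). The median of endothelial members was -0.03 and turned to 0.01 without control pool 3. The median of mural members was -0.05 and turned to 0.0041 without stress pool 2.

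**Figure D1:**
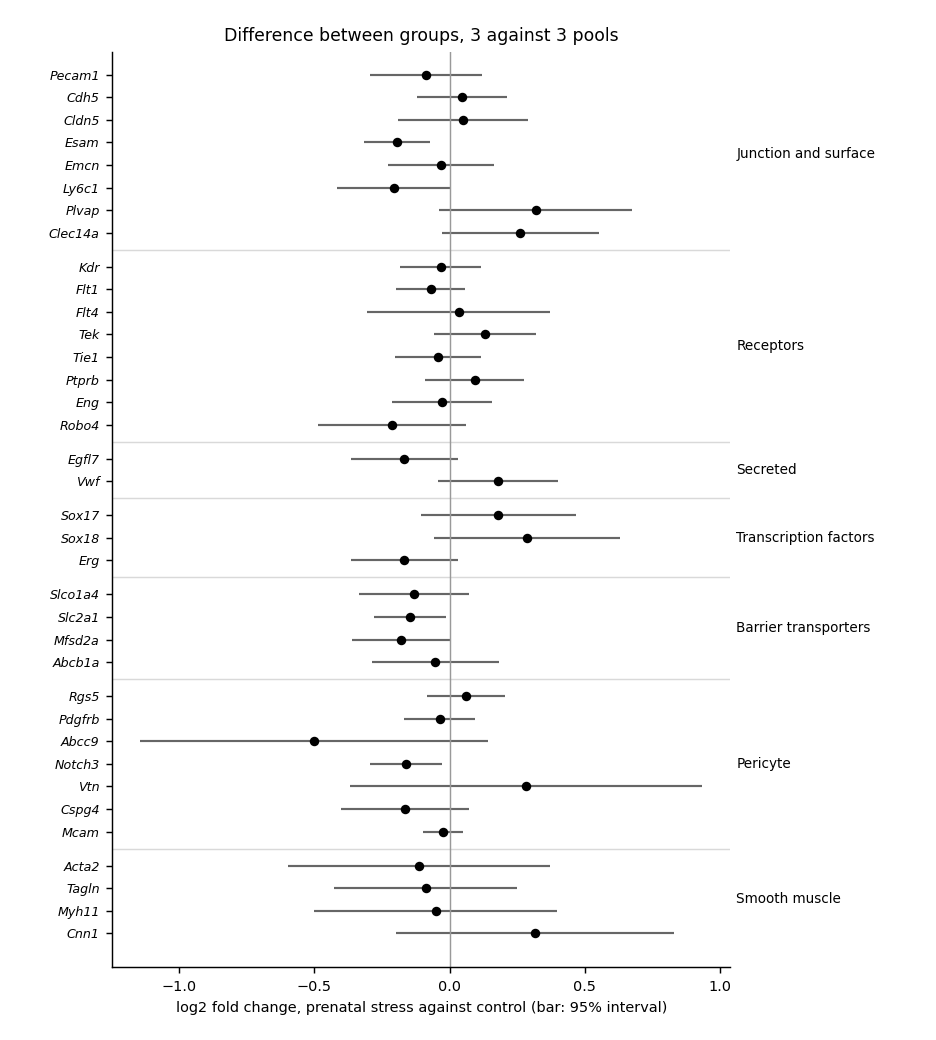
Log2 fold change of each of the 36 genes, prenatal stress over control (3 pools each), with its 95% interval, grouped by role. Most intervals cross 0, and those of Esam, Slc2a1 and Notch3 lie below it. The widest belong to Vtn, Abcc9, Cnn1 and Acta2.

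Levels were compared between genes only per length, as control mean CPM per kilobase of GENCODE M21 exon. The length joined the exons of all transcripts of a gene, so long transcripts that are little used lower its value. The pericyte-list genes Mcam, an adhesion molecule, at 67.5 and Rgs5, an inhibitor of G protein signalling, at 52.5 stood highest. The actin-binding protein gene Tagln at 19.3, the glucose transporter gene Slc2a1 at 18.3 and the surface protein gene Ly6c1 at 17.1 came next. The tight junction gene Cldn5 stood at 9.10, the pericyte receptor gene Pdgfrb at 9.04 and VE-cadherin (Cdh5) at 4.91. At the low end were the transcription factor Sox18 at 0.742 and Flt4, the receptor for lymphatic growth factors, at 0.279. All 8 endothelial receptor genes stood at 4.54 or below on this per-length scale. Whether Mcam and Rgs5 also came from cells other than pericytes was not tested.

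**Figure D2:**
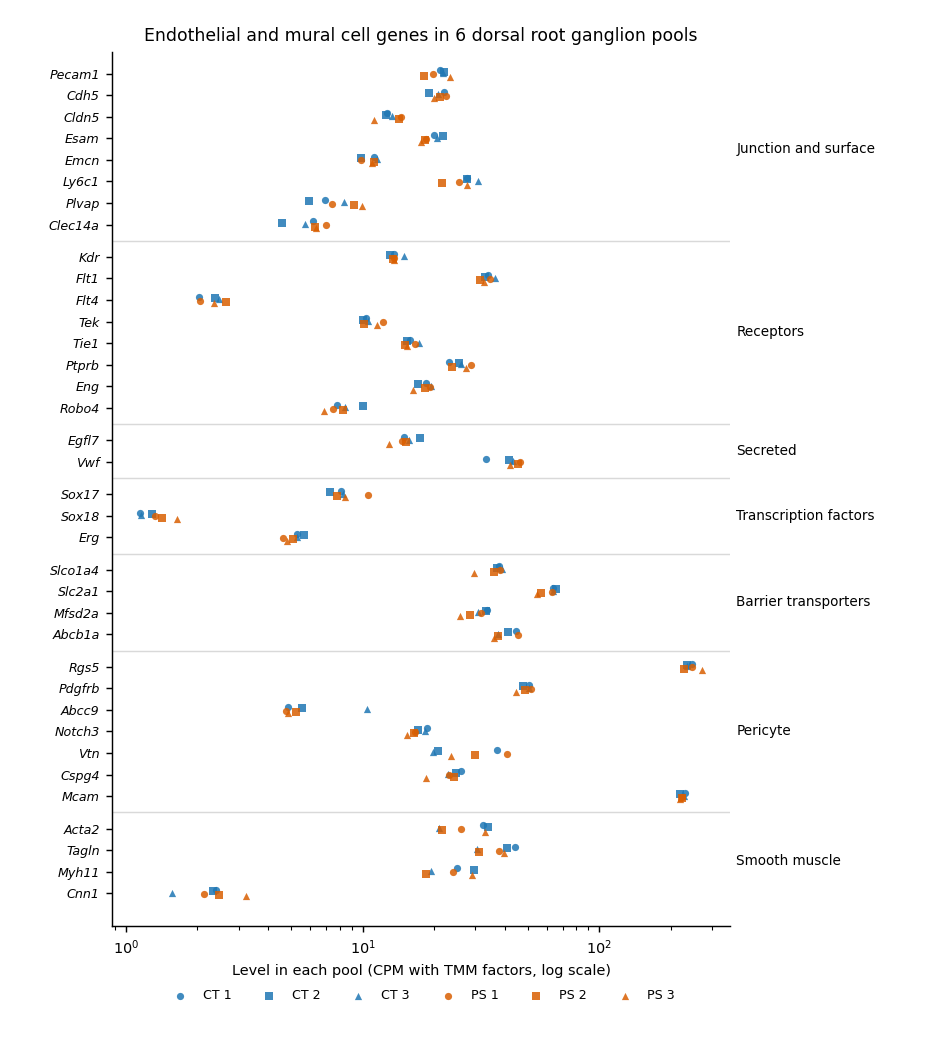
Level of each of the 36 genes in each of the 6 pools (CPM with TMM factors on a log axis, not divided by length), control pools in blue and prenatal stress pools in orange. Points of one gene lie close together for most genes. Abcc9 stands out in control pool 3 (CT 3), and the smooth muscle genes and Vtn are spread.

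Genes of endothelial junctions and surface did not move as a block, with 4 of 8 values positive and 4 negative. Esam, an adhesion molecule of endothelial tight junctions, had the smallest p of the 36. It stood at 20.0, 21.8 and 20.7 CPM in control pools 1 to 3 and at 18.6, 18.3 and 17.6 CPM in stress pools 1 to 3. All stress pools were below all control pools, by little (log2 fold change -0.19 ± 0.05 SE, unadjusted p = 0.00657, edgeR adjusted p = 0.298, range over alternatives 0.107 to 0.634). Ly6c1, a surface protein of capillary endothelium and some leukocytes, stood at 27.6, 27.7 and 30.6 CPM in control pools and 25.6, 21.6 and 27.5 CPM in stress pools. Its groups touched without overlapping (-0.20 ± 0.09, edgeR adjusted p = 0.461). Its transcripts are 97.6% identical to those of Ly6c2 over 822 bases, and 96.6% identical to those of Ly6a over 263 bases, so reads could be shared or dropped. Ly6c2 stood at 2.45 CPM in control pools, and Ly6a, with about as many reads as Ly6c1, at 24.8 CPM in control and 22.2 CPM in stress pools.

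Clec14a, a C-type lectin-like protein of growing vessels, leaned the other way. Control pools stood at 6.17, 4.56 and 5.70 CPM and stress pools at 7.02, 6.31 and 6.37 CPM. The lowest stress pool was above the highest control pool (0.26 ± 0.12, edgeR adjusted p = 0.483). Plvap, which forms the diaphragms of fenestrated capillaries, stood at 6.98, 5.93 and 8.36 CPM in control pools and 7.45, 9.21 and 9.92 CPM in stress pools, and the groups overlapped (0.32 ± 0.15, interval -0.04 to 0.67).
The defining junction genes were nearly level. Cdh5, the cadherin of endothelial adherens junctions, stood at 20.6 ± 1.52 CPM in control and 21.3 ± 1.30 CPM in stress pools (SD, n = 3 pools each; log2 fold change 0.05, interval -0.12 to 0.21). Cldn5, the main claudin of the blood-brain barrier, stood at 12.9 ± 0.410 and 13.3 ± 1.87 CPM (0.05, interval -0.19 to 0.29). Pecam1, an adhesion molecule of all endothelium, stood at 21.8 ± 0.486 and 20.5 ± 2.65 CPM (-0.09, interval -0.30 to 0.12). Emcn, a sialomucin of veins and capillaries, stood at -0.03 on the log2 scale (interval -0.23 to 0.17).

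Of the receptor genes 0 of 8 separated the groups, beside 18.1% of all genes. All 8 intervals lay within 0.5 of 0, that of Robo4 narrowly (-0.49 to 0.06). Kdr, the main VEGF receptor, stood at 13.6, 13.0 and 14.9 CPM in control pools and 13.6, 13.5 and 13.5 CPM in stress pools. The stress pools were nearly identical and lay inside the control range (-0.03 ± 0.06, interval -0.18 to 0.12). Flt1, a VEGF receptor that acts largely as a decoy, had a log2 fold change of -0.07 (interval -0.20 to 0.06). Flt4 had 0.03, with a wide interval of -0.30 to 0.37 at a level of 2.30 ± 0.236 CPM in control pools.
The angiopoietin receptor gene Tek had 0.13 (interval -0.06 to 0.32), its relative Tie1 had -0.04 (-0.20 to 0.12) and Ptprb, the phosphatase that acts on Tek and VE-cadherin, had 0.09 (-0.09 to 0.28). Eng, a co-receptor for bone morphogenetic proteins (BMP), had -0.03 (-0.21 to 0.16). Robo4, an endothelial member of the Slit receptor family, had the largest value of the group, -0.21 (-0.49 to 0.06). Its control pools stood at 7.77, 10.1 and 8.46 CPM and its stress pools at 7.53, 8.28 and 6.86 CPM, so the groups overlapped.

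Of 3 transcription factors of the endothelium, Sox18 and Erg each separated the groups, in opposite directions (66.7%, beside 18.1% of all genes). Sox18, an SRY-related factor of vessels and lymphatics, stood at 1.15, 1.29 and 1.16 CPM in control pools and 1.33, 1.43 and 1.65 CPM in stress pools (0.29 ± 0.15, edgeR adjusted p = 0.517). All stress pools were above all control pools at this low level. Erg, an ETS factor that maintains endothelial identity, stood at 5.30, 5.67 and 5.31 CPM in control pools and 4.60, 5.10 and 4.80 CPM in stress pools (-0.17 ± 0.08, edgeR adjusted p = 0.508). Sox17, an arterial factor, stood at 8.14, 7.29 and 8.31 CPM in control pools and 10.6, 7.81 and 8.46 CPM in stress pools, with stress pool 1 alone above the rest (0.18, interval -0.11 to 0.47).
The secreted products differed in sign. Vwf, the clotting factor carrier stored in endothelial granules, stood at 33.4, 41.5 and 43.2 CPM in control pools and 46.5, 45.3 and 41.9 CPM in stress pools, with control pool 1 the lowest (0.18, interval -0.04 to 0.40). Its transcript models hold a stretch shared with transcripts of 52 other genes at 90% identity or more over at least 200 bases. Egfl7, a matrix protein that guides vessel tubes, stood at 14.9, 17.5 and 15.7 CPM in control pools and 14.7, 15.2 and 13.0 CPM in stress pools (-0.17, interval -0.36 to 0.03).

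The barrier transporters were the role group with a common sign: 4 of 4 values were negative (100%, beside 47.7% of all genes). The groups were separated by 1 of the 4 (25%, beside 18.1% of all genes). Slc2a1, the glucose transporter of barrier endothelium, which other cells also make, stood at 63.5, 65.9 and 63.6 CPM in control pools and 63.2, 56.6 and 54.5 CPM in stress pools. Stress pool 1 lay just under the control pools and the other 2 clearly below (-0.15 ± 0.06, unadjusted p = 0.0341, edgeR adjusted p = 0.424, range over alternatives 0.252 to 0.672). Mfsd2a, a lipid transporter that keeps transcytosis low, stood at 33.6, 33.3 and 30.7 CPM in control pools and 31.7, 28.6 and 25.9 CPM in stress pools (-0.18, interval -0.36 to 0.00024). The organic anion transporter gene Slco1a4 had -0.13 (interval -0.33 to 0.07), with 29.6 CPM in stress pool 3 and 35.8 to 38.8 CPM in the other 5 pools. The drug efflux pump gene Abcb1a had -0.05 (interval -0.28 to 0.18).
Stress pool 3 was the lowest pool for all 4 transporters, and for 13 of the 36 members in all. It was also the lowest pool for 9 of 10 Schwann cell markers, which summed to 6552 CPM there, to 7455 to 8644 CPM in control pools and to 8283 and 8557 CPM in the other stress pools. Their part in the transporter values was not tested. Without stress pool 3 the log2 fold changes were -0.04 for Slco1a4, -0.11 for Slc2a1, -0.12 for Mfsd2a and 0.0079 for Abcb1a. Slco1a4 and Abcb1a have near copies, Slco1a5 (90.2% identical over 1321 bases) and Abcb1b (92.9% over 604 bases), with which reads could be shared.

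In the pericyte list, Mcam and Rgs5, the highest per length, differed little between groups, and 2 members were variable. Whether other cells contributed to Mcam and Rgs5 was not tested. Mcam stood at 230.4, 220.0 and 227 CPM in control pools and 225, 224 and 219 CPM in stress pools. The spread of all 6 pools was small and the groups overlapped (-0.02 ± 0.03). Rgs5 stood at 246, 235 and 235 CPM in control pools and 247, 228 and 272 CPM in stress pools, with stress pool 3 the highest (0.06, interval -0.08 to 0.21). Pdgfrb stood at 49.5 ± 1.64 and 48.3 ± 3.47 CPM (SD, n = 3 pools each; -0.04, interval -0.17 to 0.10).
Notch3, a receptor needed by mural cells of arteries, stood at 18.7, 17.2 and 18.4 CPM in control pools and 16.7, 16.5 and 15.5 CPM in stress pools. The highest stress pool was below the lowest control pool (-0.16 ± 0.06, unadjusted p = 0.0249, edgeR adjusted p = 0.386, range over alternatives 0.305 to 0.634). An antisense gene, Gm17276, shares 488 bases with Notch3 exons and stood at 3.19 CPM in control pools. Cspg4, the NG2 proteoglycan of pericytes and glial precursors, stood at 26.2, 24.9 and 23.1 CPM in control pools and 23.2, 24.2 and 18.6 CPM in stress pools, with stress pool 3 the lowest (-0.16, and -0.06 without that pool).

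Abcc9 had the largest log2 fold change of the 36, and it rested on 1 pool. The gene encodes a regulatory subunit of ATP-sensitive potassium channels in pericytes, smooth muscle and striated muscle. It stood at 4.86, 5.55 and 10.5 CPM in control pools and 4.74, 5.22 and 4.84 CPM in stress pools. Control pool 3 alone was high, and the other control pools overlapped the stress pools. The log2 fold change was -0.50 ± 0.27 (interval -1.14 to 0.14, edgeR adjusted p = 0.541), and -0.08 without control pool 3 (edgeR adjusted p = 0.876). The same pool was the highest for 10 of 10 skeletal muscle genes, such as the creatine kinase gene Ckm at 323 CPM, against 2.26 to 6.69 CPM elsewhere. The intermediate filament gene Des, made by smooth and striated muscle and picked after its values were seen, stood at 53.7 CPM there and 3.06 to 4.79 CPM in the other pools. The part of skeletal muscle in the Abcc9 value was not tested.

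Vtn varied with the pool number in both groups. It encodes vitronectin, an adhesive matrix protein made by pericytes, and stood at 36.9, 20.9 and 19.8 CPM in control pools and 40.6, 30.0 and 23.5 CPM in stress pools. Pool 1 was the highest in each group, and pool 3 the lowest, and the stress pool was the higher in 3 of 3 pairs of same-numbered pools. The log2 fold change was 0.28 ± 0.28 (interval -0.37 to 0.93, edgeR adjusted p = 0.756), and 0.63 with control pool 1 left out. With stress pool 1 left out it was 0.04, with control pool 2 left out 0.15 and with control pool 3 left out 0.12. With the replicate number as a block, which pairs the pools, it was 0.30 (edgeR adjusted p = 0.290).
Aldh1a2, a retinoic acid enzyme of the meninges, took the same order of pools: 8.30, 4.02 and 1.63 CPM in control pools and 8.99, 5.20 and 4.34 CPM in stress pools. Slc6a13, a GABA transporter of meningeal cells, stood at 16.2, 8.77 and 6.71 CPM and at 14.0, 8.72 and 9.70 CPM. These examples were picked from the fibroblast and meningeal list after their values were seen. Other genes of that list took another order. The collagen genes Col1a1, Col1a2 and Col3a1 and the proteoglycan gene Dcn were highest in pool 1 of the control group but in pool 2 of the stress group. The 10 genes summed to 1640, 1259 and 1141 CPM in control pools and to 1357, 1434 and 1238 CPM in stress pools. Their part in the Vtn values was not tested.

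Smooth muscle genes varied together from pool to pool, with no difference between the groups beyond that spread. Acta2, smooth muscle actin, stood at 32.4, 33.8 and 20.9 CPM in control pools and 26.0, 21.7 and 32.8 CPM in stress pools. Myh11, smooth muscle myosin, stood at 25.2, 29.5 and 19.5 CPM and at 24.0, 18.6 and 29.0 CPM. For both genes control pools 1 and 2 and stress pool 3 were the 3 highest, and control pool 3 and stress pool 2 the 2 lowest.
Tagln, the actin-binding protein transgelin, stood at 43.9, 40.7 and 30.3 CPM in control pools and 37.6, 31.1 and 39.4 CPM in stress pools, with the same 3 pools highest and the same 2 lowest. Cnn1, the contractile regulator calponin, stood at 2.41, 2.33 and 1.57 CPM and at 2.14, 2.47 and 3.23 CPM. Control pool 3 was again the lowest, but stress pool 2 was the second highest. Log2 fold changes were -0.11 for Acta2 (interval -0.60 to 0.37), -0.05 for Myh11 (-0.50 to 0.40), -0.09 for Tagln (-0.43 to 0.25) and 0.32 for Cnn1 (-0.20 to 0.83). The sign turned positive for Acta2 and Myh11 without control pool 2 or stress pool 2, and for Tagln without control pool 1 or stress pool 2. Cnn1 had 0.14 without control pool 3 and 0.13 without stress pool 3. The median spread within groups was 0.32 on the log2 scale for these 4 genes, 0.12 for endothelial members and 0.10 over all genes. Tagln shares exon bases with the opposite-strand genes Gm48529 (1241 bases, 1.47 CPM in control pools) and Pcsk7 (108 bases, 31.0 CPM).

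**Figure D3:**
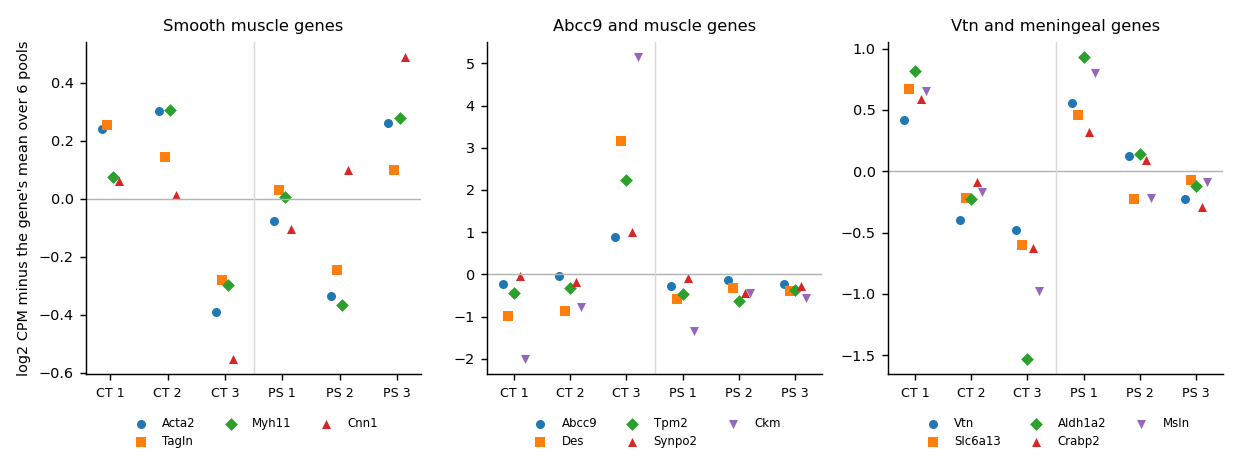
Log2 CPM of single genes in each pool minus the gene's mean over the 6 pools (the vertical scales differ). Panels show the 4 smooth muscle genes, Abcc9 beside muscle genes, and Vtn beside Slc6a13, Aldh1a2, Crabp2 and Msln. Msln comes from the perineurial marker list, and the others beside Vtn from the fibroblast and meningeal list. The genes beside Vtn are a selection, and the collagen genes and Dcn of the latter list took another order of pools. Acta2, Tagln and Myh11 are low in control pool 3 (CT 3) and stress pool 2 (PS 2). Abcc9 and the muscle genes are high in control pool 3, and Vtn is highest in pool 1 of each group.

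Of the genes that varied together between pools, Acta2, Myh11 and Tagln, only the Acta2 promoter is shown, and those of Myh11 and Tagln were not analysed here. It stands beside that of Cnn1, the smooth muscle gene with another order of pools, and that of Tie1 is shown because it alone held the ETS motif searched. Contractile genes of smooth muscle are known to be driven through CArG boxes, which bind serum response factor, and endothelial genes through ETS sites. RefSeq sequences (GRCm38.p6) were found for 25 of 36 members, as 30 windows of 250 bases before a transcription start. Capitals mark CArG boxes with at most 1 mismatch in Acta2 and Cnn1, and the letters CGGAAG on either strand in Tie1.
Acta2 (chr19:34255374-34255623, minus strand): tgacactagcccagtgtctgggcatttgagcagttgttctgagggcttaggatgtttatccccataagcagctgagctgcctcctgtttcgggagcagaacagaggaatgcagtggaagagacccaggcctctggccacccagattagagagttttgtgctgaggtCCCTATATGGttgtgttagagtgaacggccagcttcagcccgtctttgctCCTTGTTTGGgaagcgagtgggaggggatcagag
Cnn1 (chr9:22099003-22099252, plus strand): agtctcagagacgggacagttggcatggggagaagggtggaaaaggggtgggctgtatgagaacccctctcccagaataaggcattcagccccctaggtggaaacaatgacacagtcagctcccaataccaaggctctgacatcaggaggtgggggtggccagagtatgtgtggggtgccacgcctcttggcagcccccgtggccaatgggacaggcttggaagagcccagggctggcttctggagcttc
Tie1 (chr4:118489850-118490099, minus strand): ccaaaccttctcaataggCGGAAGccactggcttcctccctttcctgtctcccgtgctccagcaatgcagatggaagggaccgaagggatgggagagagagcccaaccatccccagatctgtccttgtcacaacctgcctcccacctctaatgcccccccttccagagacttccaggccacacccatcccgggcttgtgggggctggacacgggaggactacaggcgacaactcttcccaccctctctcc
The Acta2 window held 2 such boxes, which begin 84 and 34 bases before the start, and the Cnn1 window held 0. Sites outside the 250 bases, such as within the gene, were not searched. Whether these boxes relate to the order of pools was not tested. An exact CArG box was in 0 of the 30 member windows and in 1.47% of all 32851 windows. With at most 1 mismatch a box was in 7 member windows (23.3%) and in 18.6% of all windows. CGGAAG was in 1 member window (3.33%), 232 bases before the Tie1 start, and in 13.6% of all windows. That is 1 of 22 endothelial windows (4.55%). Only this exact string was searched, so ETS sites of another sequence were not counted.

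Ligands and partners of these receptors, vessel-type markers and further mural genes were described with 96 more genes, listed by role. The edgeR test called 0 of 96 (0.129% of all genes), and 9 had an unadjusted p under 0.05 (5 higher, 4 lower in stress pools), or 9.38% beside 11.1% of all genes. The groups did not overlap for 13 (3 higher, 10 lower), or 13.5% beside 18.1%, and the median log2 fold change was -0.02. DESeq2 called 3 of them (3.12%, beside 1.64% of all genes), Vegfa (adjusted p = 0.00396), Id1 (0.00519) and Sema3g (0.0285).
Among ligands, Vegfa, the VEGF that acts through Kdr and Flt1, stood at 87.2, 81.5 and 85.2 CPM in control pools and 74.3, 69.9 and 75.4 CPM in stress pools. All stress pools were below all control pools (-0.21 ± 0.04, edgeR adjusted p = 0.234, range over alternatives 0.00396 to 0.539). Vegfb, a ligand of Flt1, stood at 15.9, 15.4 and 15.8 CPM and at 21.2, 19.7 and 17.0 CPM. Here all stress pools were above the control pools (0.30 ± 0.08, edgeR adjusted p = 0.299). Pgf, from the same ligand list, was lower in stress pools without overlap (-0.13, edgeR adjusted p = 0.466). Groups did not overlap for 3 of the 7 VEGF ligand and co-receptor genes (42.9%, beside 18.1% of all genes). The VEGF co-receptor gene Nrp1 had 0.20 (edgeR adjusted p = 0.411), Angpt2, the angiopoietin that antagonises Tek, had -0.14 (0.669), and Pdgfb, the ligand of Pdgfrb, had -0.11 (0.813).

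Of 8 genes of BMP and related signalling, Id1 and Id3 separated the groups (25%, beside 18.1% of all genes). Both were higher in stress pools, as were 9.33% of all genes without overlap. Id1, an inhibitor of basic helix-loop-helix factors, stood at 5.66, 6.87 and 6.80 CPM in control pools and 9.04, 8.68 and 11.4 CPM in stress pools. The lowest stress pool was above the highest control pool (0.59 ± 0.13, edgeR adjusted p = 0.251, range over alternatives 0.00519 to 0.634). Its relative Id3 stood at 44.8, 51.8 and 54.5 CPM and at 57.9, 59.5 and 57.0 CPM (0.21 ± 0.07, edgeR adjusted p = 0.378). The receptors Acvrl1 (-0.04) and Bmpr2 (0.01) and the inhibitors Smad6 (0.0014) and Smad7 (-0.0049) were near 0.
Of 8 Notch genes 7 had negative values (87.5%, beside 47.7% of all genes). The groups were separated by 2 of the 8 (25%, beside 18.1% of all genes), both lower in stress pools. Notch4, the endothelial receptor, stood at 7.11, 6.29 and 6.51 CPM in control pools against 5.55, 5.98 and 5.71 CPM (-0.21 ± 0.08, edgeR adjusted p = 0.434). Dll4 stood at 2.55, 2.46 and 2.48 CPM against 1.94, 2.03 and 2.42 CPM (-0.23, edgeR adjusted p = 0.541). Of 7 arterial markers 4 had negative values and 3 positive ones, which were Gja5 (0.27), Efnb2 (0.09) and Mgp (0.0076). The semaphorin gene Sema3g stood at 72.0, 66.9 and 66.5 CPM in control pools and 59.1, 61.3 and 50.2 CPM in stress pools (-0.27 ± 0.08, edgeR adjusted p = 0.327, range over alternatives 0.0285 to 0.634). All stress pools were below all control pools, and the same held for the connexin gene Gja4 (2.37 ± 0.277 and 1.87 ± 0.178 CPM, -0.34, edgeR adjusted p = 0.446). These are 2 of the 7 arterial markers (28.6%, beside 18.1% of all genes). Whether Sema3g also came from cells other than arterial endothelium was not tested.

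In the other groups the smallest p belonged to Tspan12, a partner of the norrin receptor (-0.15, edgeR adjusted p = 0.466), the repulsive ligand Slit2 (0.11, 0.446), the venular chemokine receptor Ackr1 (-0.10, 0.536) and the lymphatic receptor Lyve1 (-0.14, 0.564). Of 8 venous and 5 lymphatic genes 0 had an unadjusted p under 0.05. Among 15 further mural genes, Tpm2, a tropomyosin, had the smallest p (-1.56, edgeR adjusted p = 0.464) and -0.12 without control pool 3, where it stood at 104 CPM against 14.3 to 17.9 CPM in the other pools.

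**Figure D4:**
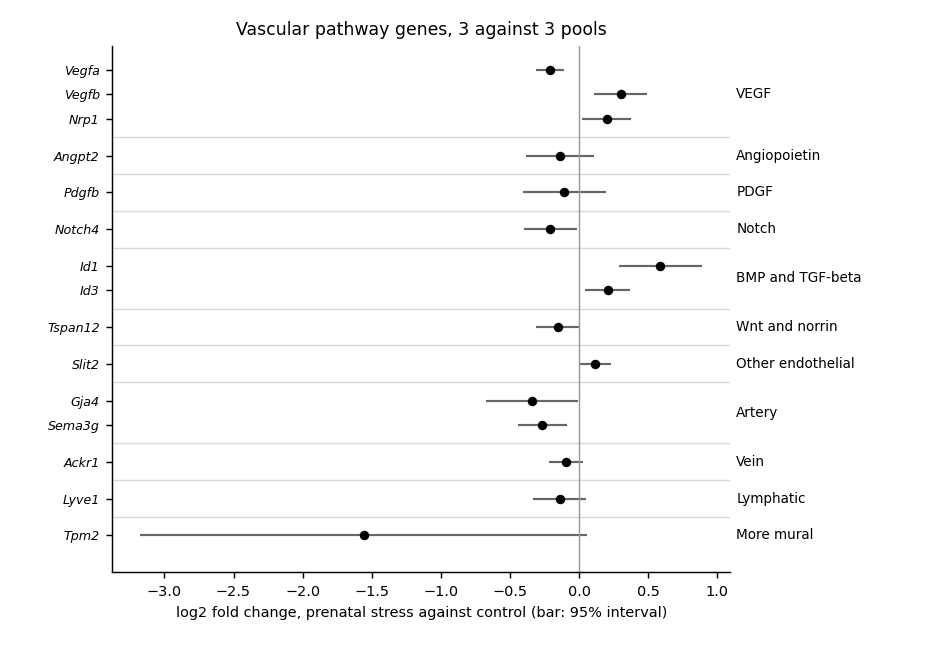
Log2 fold change, prenatal stress over control (3 pools each), with its 95% interval, for the 15 vascular pathway genes named by rule. Vegfa, Sema3g, Notch4 and Gja4 lie below 0 and Vegfb, Nrp1, Id1, Id3 and Slit2 above it, and 0 of the 15 passed the edgeR test. Tpm2, which was high in control pool 3, has the widest interval.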

How the data were processed

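The authors deposited 1 file of raw read counts per gene symbol for each of 6 libraries. The submitters' processing notes list STAR 2.4, HTSeq 0.9.1, FastQC and 2 builds, mm10 and GRCm39. Neither the build behind the counts nor the annotation or HTSeq's strand mode is stated there, so overlapping and antisense genes could share reads. Reads given to no single gene, in 5 summary rows, made up 15.3% to 16.2% of a file and were left out. Every pair of libraries differed by more than sampling noise (chi-square per degree of freedom of 10.9 or more).

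Counts were tested with edgeR 4.0.16 (TMM, filterByExpr with a minimum count of 10, quasi-likelihood F test) in R 4.3.3 over all 20146 genes, with Benjamini-Hochberg adjustment at 0.05. The standard error was the log2 fold change over the square root of F, and intervals used its degrees of freedom. The test was checked on simulated data. DESeq2 1.42.0 and limma 3.58.1 were alternatives, beside other scalings, filters and each pool left out. Lengths, overlaps and near copies (minimap2 2.31-r1302, at least 90% identity over 200 bases) came from GENCODE M21, where all 36 symbols were found. The number of pools limits precision, and for members with few reads, such as Sox18 (80 to 103 counts per pool), counting error does too.

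The members, the lists, the tests and the rule for named genes were chosen with earlier results of these data known. The rule named all 36 members, pathway genes with an unadjusted p under 0.05 and the smallest p per pathway list. Acvrl1, Bmpr2, Smad6, Smad7, Dll4, Pgf, Gja5, Efnb2, Mgp, Des, Synpo2 and the marker genes were added. The labels give replicate numbers 1 to 3 in both groups. For pools with the same number, deviations from their group's mean had correlations of 0.32, 0.21 and 0.13 across genes. For pools with different numbers they ran from -0.29 to 0.12, the latter for control pool 3 with stress pool 2. The labels do not say that the numbers pair the pools. The main test did not pair them, and pairing by number was used only as an alternative.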

Additional observations from a re-analysis of the deposited data

How the results depend on the processing

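The count of called members was 0 of 36 in all 14 alternatives. That of pathway genes was 3 with DESeq2 and 0 in the other 13 (of 96, or of 87 with a mean of at least 1 CPM). Over all genes, 26 were called. The count was 330 with DESeq2 (158 higher, 172 lower), 49 without the low-count filter (25 higher, 24 lower) and between 2 and 14 with 1 pool left out. The replicate number as a block, which pairs the pools, gave 22 calls (14 higher, 8 lower) over all genes and changed no call of a member or pathway gene. Leaving out 1 pool moved the median log2 fold change over -0.08 to -0.02 for all members, -0.08 to 0.01 for endothelial and -0.09 to 0.0041 for mural members. Of 504 single values of members under alternatives, 479 kept their direction and stayed uncalled, and 25 changed sign while uncalled. With limma voom and quality weights the sign turned for Flt4 (-0.041), Eng (0.012) and Abcb1a (0.017). With 1 pool left out, log2 fold changes ranged as follows. Cdh5 ran from -0.015 to 0.095, Cldn5 from -0.027 to 0.15, Emcn from -0.10 to 0.020, Kdr from -0.082 to 0.025 and Flt4 from -0.060 to 0.12. Tie1 ran from -0.093 to 0.013, Eng from -0.090 to 0.030, Abcb1a from -0.17 to 0.0098, Rgs5 from -0.012 to 0.12 and Pdgfrb from -0.093 to 0.010. Acta2 ran from -0.30 to 0.016, Tagln from -0.23 to 0.021, Myh11 from -0.22 to 0.097 and the pathway gene Pdgfb from -0.21 to 0.018. The cause was not tested. With 3 pools a group and few counts in the lowest members, the intervals show the differences these data leave room for.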
